A study of Homo sapiens with 82 samples.

Results

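The early response of HT29 colorectal cancer cells to T0901317, an agonist of the liver X receptors (LXRs), was measured by RNA-seq after 24 h. HT29 is an established human colorectal adenocarcinoma line, and 4 libraries of cells treated with 10 μM T0901317 for 24 h were compared with 4 libraries of cells kept in the carrier DMSO for 24 h. The members were taken by agent and time from the labels, and these 8 libraries belong to 32 RNA libraries and 82 samples in the whole series. All groups used here came from the same unmodified line, which carried no transgene or deletion, and before treatment the cells were held in phenol red-free McCoy's 5A medium with charcoal/dextran-treated serum. For comparison, 4 libraries of cells given 10 μM GW3965, the first LXR agonist of the study, for 24 h were used, together with the 4 DMSO and 4 T0901317 libraries of 48 h. The fits also held libraries of cells given 10 μM rosiglitazone, an agonist of PPARG, for 24 or 48 h, and 10 μM GW3965 for 48 h. Those libraries were not compared here but entered the estimate of the spread and the filter on low counts. The comparison asks which genes a second, independent LXR agonist raised or lowered within the first day.

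LXRA (NR1H3) and LXRB (NR1H2) are nuclear receptors that are activated by oxidized cholesterol. They bind DNA as partners of retinoid X receptors (RXRs), typically at DR4 elements, direct repeats of a hexamer spaced by 4 bases. Their best known targets export cholesterol from the cell (ABCA1, ABCG1), limit its uptake (MYLIP) and switch on fatty acid synthesis through SREBF1. T0901317 is also known to activate the bile acid receptor FXR (NR1H4) and the xenobiotic receptor PXR (NR1I2), so target lists of those receptors were examined as well.

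Total counts ran from 30834003 to 39955727 in the DMSO libraries and from 21044798 to 38908009 in the T0901317 libraries of 24 h, the lowest total being that of T0901317 replicate 2. Mitochondrial genes took 2.46 to 3.04% of the counts in these 8 libraries. All 16 markers of intestinal epithelium, such as EPCAM, VIL1 and CDX2, had counts in each of the 8 libraries, and their summed level ran from 18634 to 20199 counts per 1000000 (CPM) with DMSO and from 20229 to 21424 CPM with T0901317. The ranges did not overlap but lay close to each other, and KRT8 and KRT18 had the most counts of the 16. In the test described below, 1 of the 16 was higher and 0 lower, against 1.33% and 0.119% of all genes tested. The log2 fold change was positive for 8 of the 16, with a median of 0.00168. The summed ranges of the marker lists of other cell types overlapped between the groups. They ran from 4.05 to 6.02 CPM against 4.91 to 6.98 CPM for 8 fibroblast markers, of which COL1A2, COL3A1, DCN and PDGFRA were at 0 in all 8 libraries, and from 0.706 to 1.37 CPM against 0.844 to 1.62 CPM for 5 endothelial markers. For 8 leukocyte markers they ran from 452 to 528 CPM against 483 to 569 CPM, nearly all of it LYZ, with CD3D and MS4A1 at 0 throughout and PTPRC at 0 in 7 of 8 libraries. They were 135 to 146 CPM against 135 to 148 CPM for 8 hepatocyte markers (ALB and FGB at 0) and 50.9 to 58.5 CPM against 44.0 to 59.7 CPM for 6 adipocyte markers (CIDEA and FABP4 at 0). Some members of these lists were expressed, and they made up most of the sums. Raw counts over the 8 libraries were 2841 to 5605 for SERPINA1 and 294 to 541 for APOH in the hepatocyte list. They were 965 to 2138 for LIPE in the adipocyte list and 105 to 212 for COL1A1 in the fibroblast list.

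T0901317 raised few genes and lowered fewer. Of 21781 genes tested, 59 (0.271%) were higher and 2 (0.00918%) lower by at least 2-fold at an adjusted p under 0.01, with edgeR's quasi-likelihood test and Benjamini-Hochberg adjustment over all genes tested. With a cutoff of 1.5-fold, 150 genes (0.689%) were higher and 7 (0.0321%) lower. Without any cutoff on size, 289 (1.33%) were higher and 26 (0.119%) lower, and gene lists below are counted by this last rule. The median log2 fold change over all genes tested was -0.00388. Every one of the 59, the 150 and the 7 genes had its 4 T0901317 libraries on 1 side of its 4 DMSO libraries, as did 8.51% of all genes tested. When the test was made against a change of 1.5-fold itself, 42 genes were higher, 37 of them by at least 2-fold, and 0 lower (44 at an unadjusted p under 0.05). The number lowered by at least 2-fold hung on single libraries: it was 1 without T0901317 replicate 1 and 7 without T0901317 replicate 4. Each treatment was repeated for each library, but whether on separate passages or days is not stated, so the p-values measure the spread between these samples. In RNA from many cells, more cells with a transcript and more transcript per cell cannot be told apart.

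**Figure D1:**
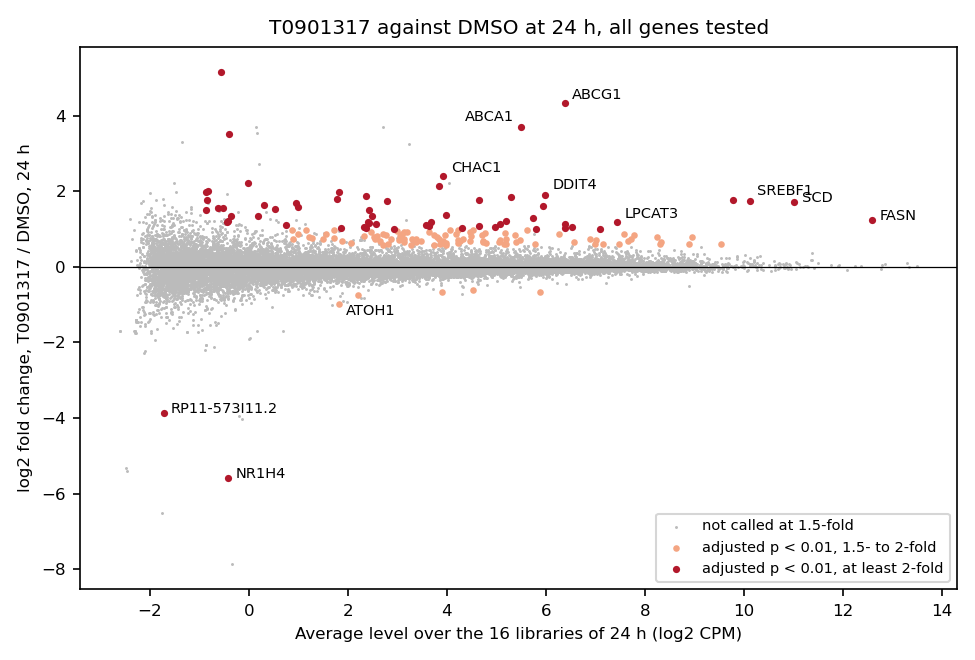
Log2 fold change of each of the 21781 genes tested (T0901317 against DMSO at 24 h, vertical axis) against its average level over the 16 libraries of 24 h in log2 CPM (horizontal axis). Genes past an adjusted p of 0.01 are dark red at 2-fold or more and orange between 1.5- and 2-fold, and the 59 dark red points above 0 stand against 2 below, NR1H4 and RP11-573I11.2.

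Cholesterol exporters were the genes with the largest increases among those of at least average log2 CPM 0. ABCG1 (ENSG00000160179.13), a transporter that passes cholesterol to high density lipoprotein, was at 6.88, 6.64, 6.38 and 7.84 CPM in the 4 DMSO libraries and at 132, 134, 155 and 141 CPM with T0901317. ABCA1 (ENSG00000165029.11), the transporter for lipid-poor apolipoproteins, was at 4.92, 4.45, 4.8 and 4.33 CPM with DMSO and at 55.9, 67.6, 64.4 and 54.7 CPM with T0901317. For both, the lowest treated library stood far above the highest DMSO library. The log2 fold change was 4.34 ± 0.08 (SE, n = 4 per group, edgeR adjusted p = 1.04e-17) for ABCG1, a 20.3-fold rise, and 3.71 ± 0.09 (adjusted p = 5.67e-16) for ABCA1, a 13.1-fold rise.

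The promoter of ABCA1 is shown because it carries a well known LXR element and because this gene, unlike ABCG1, has an entry among the RefSeq promoters used here. It covers the 250 bases before the RefSeq start on the minus strand of GRCh38.p14, chr9:104928156-104928405, with a match to the DR4 element in capitals. That element was searched as the hexamer AGGTCA written out a second time after a gap of any 4 bases.
ABCA1: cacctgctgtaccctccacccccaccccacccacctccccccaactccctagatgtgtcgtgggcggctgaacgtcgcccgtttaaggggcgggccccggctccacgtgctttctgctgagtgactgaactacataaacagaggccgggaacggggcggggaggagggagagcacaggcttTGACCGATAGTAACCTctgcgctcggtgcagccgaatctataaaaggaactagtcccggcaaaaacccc
The match reads AGGTTACTATCGGTCA on the other strand, differs from the DR4 letters at 2 positions and lies between positions -69 and -54 before the start. With up to 2 letters differing and either strand allowed, 714 of 35116 RefSeq promoter windows of this length (2.03%) held such a match, and ABCA1 was the 1 of 6 promoters among the raised genes of the LXR target list that did.

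The list of sterol efflux genes and direct LXR targets held 21 genes, of which 5 were too low to be tested. Of the 16 measured, 8 rose and 0 fell, with a median log2 fold change of 0.76 over the 16 where that of all genes was -0.00388. MYLIP, a ubiquitin ligase that limits lipoprotein uptake, went from 9.08, 7.88, 8.12 and 7.90 CPM to 22.3, 22.6, 20.8 and 20.6 CPM, a log2 fold change of 1.39 ± 0.08. LPCAT3, which places polyunsaturated fatty acids into phospholipids, went from 82.6, 84.9, 77.0 and 81.5 CPM to 187, 187, 191 and 179 CPM (1.19 ± 0.05). NR1H3, which encodes LXRA itself, was at 73.7, 75.1, 67.0 and 71.7 CPM with DMSO and 126, 108, 138 and 107 CPM with T0901317 (0.74 ± 0.08, adjusted p = 6.92e-06). The groups did not overlap for any of the 3. SREBF1, SCD and FASN complete the 8. PLTP, a phospholipid transfer protein, missed the threshold by little (0.78 ± 0.17, adjusted p = 0.0112), and the values of SMPDL3A (0.56), APOE (0.18), MLXIPL (0.06) and CD82 (0.08) did not pass either.

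Genes of fatty acid synthesis and activation rose. Of 27 members measured among the 29 genes of fatty acid and triglyceride synthesis, 11 were higher and 0 lower (median log2 fold change 0.23), 5 of them by at least 2-fold. SREBF1, the transcription factor that drives the pathway, stood at 446, 498, 421 and 516 CPM with DMSO and 1634, 1560, 1843 and 1318 CPM with T0901317 (log2 fold change 1.76 ± 0.13, adjusted p = 4.79e-08). SCD, the enzyme that introduces the first double bond into saturated fatty acids, rose from 877, 866, 894 and 848 CPM to 2913, 2890, 2885 and 2832 CPM (1.72 ± 0.05). FASN, the fatty acid synthase, rose from 3087, 3573, 2927 and 3553 CPM to 8002, 7425, 8900 and 6491 CPM (1.23 ± 0.17). The SCD libraries were nearly level within each group, whereas SREBF1 and FASN were highest in T0901317 replicate 3 and lowest in replicate 4.

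Enzymes at the entry of the pathway also passed. ACSS2, which makes acetyl-CoA from acetate, went from between 15.5 and 18.0 CPM to between 32.8 and 37.4 CPM (1.09 ± 0.11), and ACACA, which makes malonyl-CoA, had a log2 fold change of 0.78 ± 0.05. ACSL1, which activates long-chain fatty acids, went from 46.0, 41.8, 44.4 and 43.0 CPM to 97.4, 96.8, 92.0 and 98.4 CPM (1.13 ± 0.05), while its relatives ACSL3 (0.86 ± 0.06) and ACSL5 (0.29 ± 0.05) rose less than 2-fold. LPIN1, a phosphatidate phosphatase (0.85 ± 0.06), MID1IP1, an activator of acetyl-CoA carboxylase (0.74 ± 0.06), and the elongase ELOVL6 (0.50 ± 0.06) make up the remaining members that passed. ACLY, the ATP citrate lyase (0.14, adjusted p = 0.561), GPAM (-0.09), DGAT1 (-0.00424) and DGAT2 (-0.00308), the enzymes at the beginning and end of triglyceride assembly, did not pass.

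The row for MIR33B, a microRNA gene that lies inside an intron of SREBF1, went from 9.37, 11.3, 9.48 and 11.8 CPM to 38.2, 35.4, 39.7 and 30.1 CPM (log2 fold change 1.78 ± 0.15). These are reads of mRNA libraries over the hairpin gene and not a measurement of the mature microRNA, and they cannot be told apart from reads of SREBF1. MIR33A, whose gene lies in SREBF2, had a log2 fold change of 0.29 (adjusted p = 0.450), beside 0.21 (adjusted p = 0.214) for SREBF2. The mature sequences in RefSeq, shown because these microRNAs are known to repress ABCA1 and share 1 seed (bases 2 to 8, in capitals), are at chr17:17813897-17813916 on the minus strand and chr22:41900949-41900969 on the plus strand of GRCh38.p14.
hsa-miR-33b-5p: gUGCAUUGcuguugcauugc
hsa-miR-33a-5p: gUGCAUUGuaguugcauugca

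Few genes of cholesterol synthesis passed at 24 h. Of 29 measured members of the list, 3 were higher (10.3%, against 1.33% of all genes tested) and 0 lower. The median log2 fold change was 0.0563. INSIG1, which retains SREBPs in the endoplasmic reticulum, was at 143 to 158 CPM with DMSO and 179 to 204 CPM with T0901317 (0.36 ± 0.05), and FDFT1, the squalene synthase, rose by 0.26 ± 0.05. SREBF2, the transcription factor of this pathway, did not pass. Among 15 apolipoproteins and lipoprotein receptors, VLDLR (1.5 ± 0.10) and LRP8 (0.67 ± 0.07), both receptors for apolipoprotein E, were higher and 0 genes lower (median 0.10). In the list of 16 lipid droplet proteins and lipases, the droplet coat protein PLIN2 rose from between 4.31 and 4.99 CPM to between 6.04 and 8.73 CPM (0.61 ± 0.11, adjusted p = 0.00238), and the lipase LIPG rose by 0.30 ± 0.06 (list median 0.13). The PLIN2 call was lost without DMSO replicate 3, DMSO replicate 4 or T0901317 replicate 3, with adjusted p-values of 0.0139, 0.0116 and 0.0109.

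**Figure D2:**
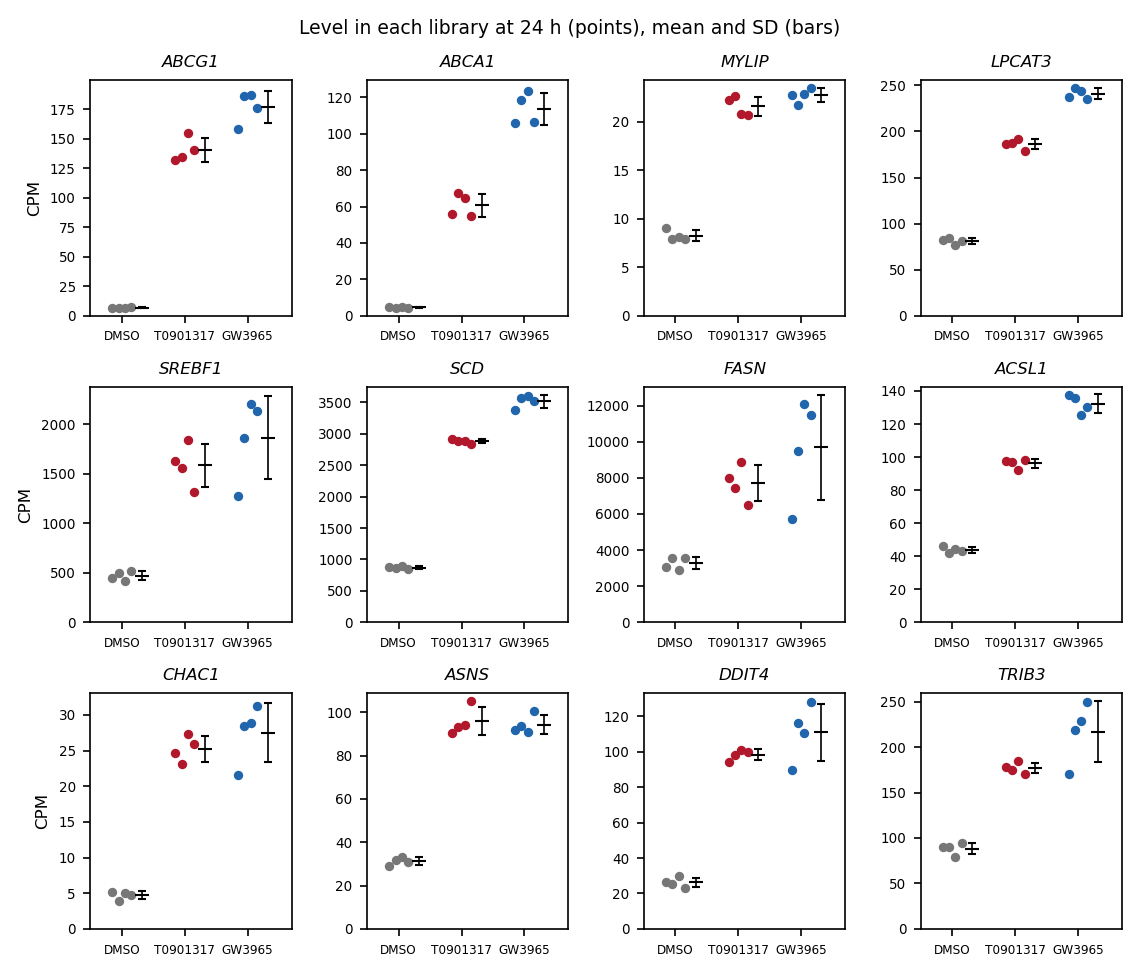
Level in CPM (vertical axes, each from 0) of 12 genes in each library of 24 h (points), with the mean and SD of 4 libraries per group (bars), for DMSO, T0901317 and GW3965. In every panel the 4 T0901317 points lie above the 4 DMSO points, and for ABCG1, ABCA1, LPCAT3, SCD and ACSL1 also below the 4 GW3965 points.

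A second group that rose is known for the integrated stress response, in which the factor ATF4 raises amino acid synthesis and transport when amino acids are short or proteins misfold. Of 30 genes in the list for this and the unfolded protein response 29 were measured, and 16 of these were higher and 0 lower (17 and 1 with DESeq2), against 1.33% of all genes tested that were higher. The median log2 fold change of the list was 0.30. CHAC1, which degrades glutathione, was at 5.21, 3.97, 5.04 and 4.8 CPM with DMSO and 24.6, 23.1, 27.3 and 25.9 CPM with T0901317, a 5.29-fold rise (log2 fold change 2.40 ± 0.11, adjusted p = 3.14e-11). DDIT4, an inhibitor of mTORC1 signaling, went from 26.6, 25.5, 29.7 and 23.3 CPM to 94.0, 98.2, 101 and 99.9 CPM (1.90 ± 0.12). ASNS, the asparagine synthetase, went from 29.0, 31.8, 33.4 and 31.0 CPM to 90.4, 93.4, 94.3 and 105 CPM (1.61 ± 0.06). In none of these 3 did the 2 groups come near each other.

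The pseudokinase TRIB3 rose from 89.9, 89.9, 79.3 and 93.9 CPM to 178, 175, 184 and 171 CPM (1.0 ± 0.09). SESN2, a stress-induced inhibitor of mTORC1 (1.06 ± 0.11), and PSAT1 (1.03 ± 0.06) and PHGDH (0.98 ± 0.08), enzymes of serine synthesis, changed by about as much. The amino acid transporters SLC7A11 (0.88 ± 0.06), SLC7A5 (0.60 ± 0.11) and SLC3A2 (0.46 ± 0.05) rose, as did DDIT3, which encodes CHOP (0.69 ± 0.11), and ATF4 itself (0.43 ± 0.06). The members tied to protein folding moved less: HERPUD1 rose by 0.48, XBP1 by 0.30 and the chaperone CALR by 0.26, while the chaperones HSPA5 (0.24, adjusted p = 0.0233) and HSP90B1 (0.09) did not pass. The lipoprotein receptor VLDLR counts among the 16 as well.

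Promoters of 2 of these genes are shown because they hold the letters TGATGNAA, the core of the element to which ATF4 binds with its partners. Each covers 250 bases before the RefSeq start in GRCh38.p14, for ASNS at chr7:97872409-97872658 on the minus strand and for CHAC1 at chr15:40953221-40953470 on the plus strand, with the match in capitals.
ASNS: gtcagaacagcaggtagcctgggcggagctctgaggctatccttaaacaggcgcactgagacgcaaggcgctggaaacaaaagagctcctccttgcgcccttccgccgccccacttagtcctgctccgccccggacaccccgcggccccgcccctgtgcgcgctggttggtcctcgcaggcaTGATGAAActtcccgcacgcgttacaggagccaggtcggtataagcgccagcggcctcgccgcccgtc
CHAC1: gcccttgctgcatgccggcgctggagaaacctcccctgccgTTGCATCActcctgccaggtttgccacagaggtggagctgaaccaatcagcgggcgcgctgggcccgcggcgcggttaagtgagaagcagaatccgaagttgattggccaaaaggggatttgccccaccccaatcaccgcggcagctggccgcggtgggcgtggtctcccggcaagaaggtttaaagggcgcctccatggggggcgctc
The match of ASNS, TGATGAAA, lies at -68 to -61, and that of CHAC1 lies at -209 to -202 and reads TGATGCAA on the other strand. Such letters, on either strand, were found in 1104 of 35116 windows (3.14%), and in 3 of the 15 raised members of the stress list that had a window, HERPUD1 being the third.

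Other large increases were scattered over functions. CYP4F12 (4.21, 3.24, 4.66 and 4.74 CPM with DMSO, 16.4, 16.8, 21.8 and 20.2 CPM with T0901317), CYP4F3 and CYP4F11, cytochromes P450 that hydroxylate fatty acids and eicosanoids, had log2 fold changes of 2.15 ± 0.11, 1.79 ± 0.15 and 1.63 ± 0.25. The 3 genes are close paralogs, so reads may be split between them. The glycine transporter SLC6A9 (1.98 ± 0.24), the hormone gene ADM2 (1.87 ± 0.19), GCKR, the regulator of glucokinase (1.68 ± 0.23), and NEBL, an actin-binding protein (1.60 ± 0.27), started from DMSO levels of at most 2.71 CPM. SCDP1 (1.75 ± 0.14) is a pseudogene of SCD with which it may share reads. AL139819.1 (1.76 ± 0.05) and AC006262.2 (1.53 ± 0.23) are known by clone names alone. The log2 fold change of AL139819.1 was close to that of SCD at 24 h (1.76 and 1.72) and at 48 h (2.46 and 2.44). Whether AL139819.1 and SCD share reads was not tested. The largest fitted increase of any called gene, 5.17 ± 0.45, belonged to AP001623.1, which was named after its values were seen. It was at 0.0489, 0.00, 0.0235 and 0.0279 CPM in the DMSO libraries and at 0.932, 1.13, 1.35 and 0.884 CPM with T0901317.

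The 7 genes that fell by at least 1.5-fold changed little or had few counts. ATOH1, a transcription factor of secretory intestinal cells, went from 5.14, 5.08, 6.38 and 4.88 CPM to 2.82, 2.77, 2.58 and 2.77 CPM, a decrease of 1.97-fold (log2 fold change -0.98 ± 0.12). The scaffold AKAP7 (-0.76), the Notch ligand DLL4 (-0.66), the ephrin receptor EPHB3 (-0.66) and the collagen receptor subunit ITGA1 (-0.62) fell by less. The call of EPHB3 (adjusted p = 0.00866) was lost with RLE scaling (adjusted p = 0.0106) and on leaving out any library but T0901317 replicate 3, with adjusted p up to 0.0374, and that of DLL4 without T0901317 replicate 2 (adjusted p = 0.0103). TXNIP, a thioredoxin inhibitor that responds to glucose, fell from 81.7, 84.6, 97.4 and 87.0 CPM to 64.3, 63.8, 68.1 and 61.1 CPM (-0.45 ± 0.06).

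Both genes lowered by over 2-fold were near the limit of detection. NR1H4 (ENSG00000012504.9), the gene of FXR, had raw counts of 6, 4, 5 and 9 with DMSO and 0 in each of the 4 T0901317 libraries, beside 8, 11, 13 and 6 with GW3965. Against a floor of 3 counts over the whole group, its pooled level was at least 6.78-fold lower with T0901317. It passed the filter on low counts only through the libraries of the PPARG agonist rosiglitazone, where it had 62 to 101 counts, and would not have been tested in the 8 libraries alone, so its call is given as a description. It was the 1 called gene of this comparison of which that holds. The call was also lost in the fit of all libraries without DMSO replicate 4 or T0901317 replicate 1, 3 or 4. RP11-573I11.2 (ENSG00000236671.1) had counts of 17, 22, 17 and 18 with DMSO and 0, 0, 0 and 4 with T0901317, so its pooled level was 15.7-fold lower. Intervals and floors of this kind cover counting error only.

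Among 30 measured nuclear receptors and cofactors, NR1H3 and RARG (0.28 ± 0.06) were higher (6.67%, against 1.33% of all genes tested), with a list median of 0.0784. NR1H4 counted as lower, by the call given above as a description. NR1H2, which encodes LXRB, was at 43.2 to 49.3 CPM with DMSO and 47.3 to 50.7 CPM with T0901317 (0.07, adjusted p = 0.727). RXRA (0.08), RXRB (0.08) and PPARG (-0.03, adjusted p = 0.940) did not pass, and RXRG was too low to be tested. NR1I2, the gene of PXR, was at 0.167 to 0.254 CPM against 0.362 to 0.658 CPM, groups that did not overlap (1.28, 95% interval 0.38 to 2.18, adjusted p = 0.158).

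Among the targets of FXR and PXR, 1 gene passed against DMSO. FGF19, the intestinal hormone that FXR induces, was the 1 of 9 measured members of the FXR and bile acid list to pass, rising from 20.7, 21.4, 21.7 and 23.5 CPM to 40.0, 39.8, 45.7 and 40.9 CPM (0.93 ± 0.11, adjusted p = 3.23e-05). NR0B2, which encodes the repressor SHP, was at 3.57, 3.5, 3.88 and 3.68 CPM with DMSO and 5.26, 4.55, 6.44 and 6.68 CPM with T0901317, groups that did not overlap, with an adjusted p of 0.0855 (0.65 ± 0.19). Of 13 measured PXR and CAR targets, 0 passed in either direction with edgeR, and 1 was higher with DESeq2. At an unadjusted p under 0.05, 7 of the 13 (53.8%) were higher and 0 lower, against 7.37% and 4.8% of all genes tested, and the list median was 0.23. The list was not particular to T0901317: with GW3965 against the same DMSO libraries its median was 0.42. There, 1 of the 13 was higher and 0 lower at an adjusted p under 0.01, against 1.86% and 0.868% of all genes tested. CYP3A5 was at 54.0 to 56.9 CPM against 61.3 to 66.5 CPM (0.21 ± 0.06, adjusted p = 0.0594), ABCC2 had a log2 fold change of 1.23 ± 0.26 (adjusted p = 0.0112), and CYP3A4 was too low to be tested.

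Of 26 measured genes of fatty acid oxidation and PPAR targets, the carnitine transferase CPT2 was higher (0.44 ± 0.07) and TXNIP lower, with a list median of 0.11. That is 3.85% in each direction, against 1.33% higher and 0.119% lower of all genes tested. PDK4, a kinase that holds back pyruvate oxidation, was at 4.23, 4.83, 4.85 and 4.61 CPM with DMSO and 5.31, 5.63, 4.47 and 6.74 CPM with T0901317 (0.26 ± 0.11, adjusted p = 0.337), and the groups overlapped.

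The remaining lists held 1 to 5 members that passed, and their medians lay between -0.0162 and 0.16. The shares of measured members that were higher ran from 2.22% (cell cycle) to 17.2% (ABC transporters), against 1.33% of all genes tested. Of 29 ABC transporters, 5 were higher, among them ABCA1, ABCG1 and the exporters ABCC4 (0.54 ± 0.06) and ABCG2 (0.41 ± 0.08, adjusted p = 0.00791, list median 0.0829). The ABCG2 call did not hold with scaling by library size (adjusted p = 0.0228) and was lost on leaving out any library but T0901317 replicate 1, with adjusted p up to 0.0378. Of 37 genes of glycolysis, lactate and hypoxia, VEGFA (0.86 ± 0.06) and the lactate exporter SLC16A3 (0.46 ± 0.09) were higher (median 0.0276), and GAPDH was not called (0.02 ± 0.05). Of 26 antioxidant genes and NRF2 targets, SLC7A11, NQO1 (0.31 ± 0.05) and PGD (0.25 ± 0.05) were higher (median 0.0538). The cell cycle list, with 45 genes measured, had 1 member higher, the inhibitor CDKN1A (0.84 ± 0.08, from between 9.63 and 12.1 CPM to between 19.1 and 21.3 CPM), and a median of -0.0162, with the proliferation marker MKI67 at 0.01 ± 0.07.

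Signaling and immune lists had 1 or 2 members each that passed. These were 3.57% to 16.7% of the members measured, against 1.33% of all genes tested that were higher. The AP1 list had 2 of 12 higher, ATF3 (0.79 ± 0.12) and MAFF (0.45 ± 0.09), at a median of 0.16. HBEGF, a ligand of the EGF receptor (0.84 ± 0.12), was the 1 of 28 immediate early and MAPK feedback genes to pass (median 0.0980). At an unadjusted p under 0.05, 10 of the 28 (35.7%) were higher and 5 (17.9%) lower, against 7.37% and 4.8% of all genes tested. ISG20 (0.99 ± 0.17) and IFI35 (0.67 ± 0.11) passed among 27 interferon-stimulated genes (median 0.0947) and the protease MMP7 (0.69 ± 0.08) among 18 NFKB targets and chemokines (median 0.0728). In these 4 lists, 0 members were lower at an adjusted p under 0.01, against 0.119% of all genes tested. Among the cell type markers, KRT20 rose by 0.42 ± 0.05 and CD14 by 0.86 ± 0.16, the latter from between 1.4 and 1.88 CPM to between 2.00 and 3.31 CPM.

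**Figure D3:**
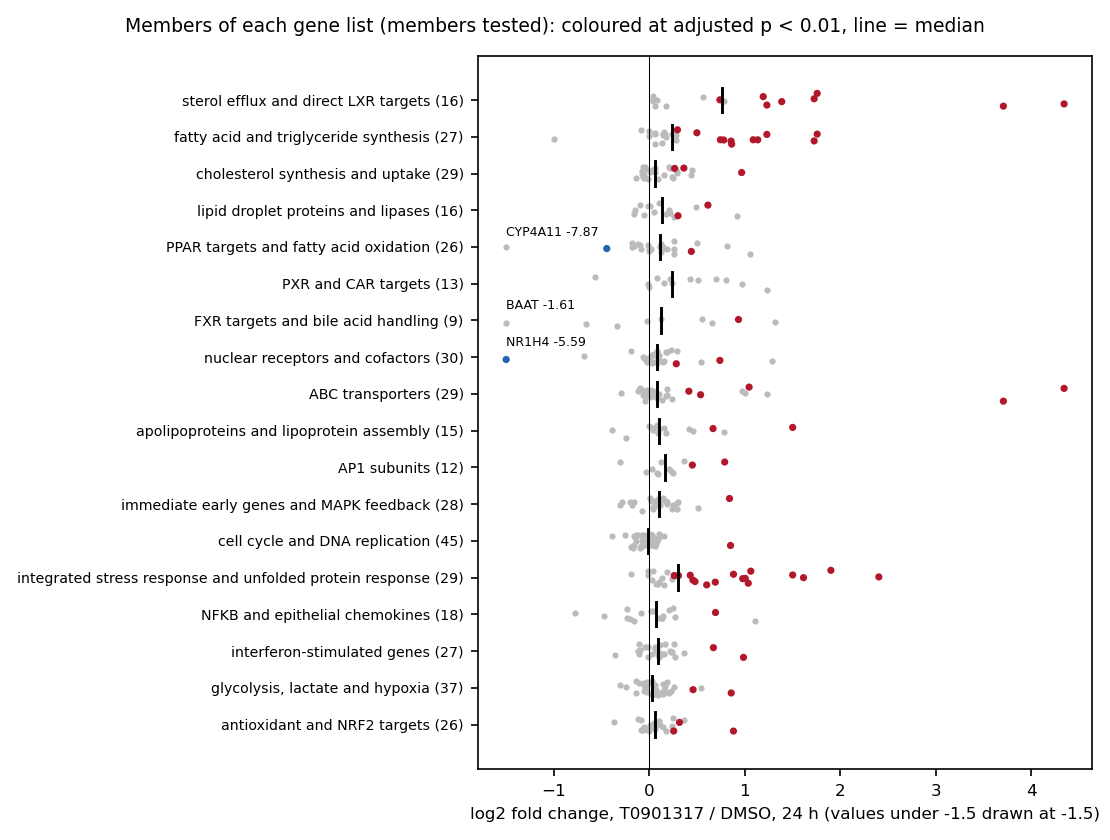
Log2 fold change (T0901317 against DMSO at 24 h, horizontal axis) of each measured member of 18 gene lists (rows, number measured in parentheses), red for higher and blue for lower at an adjusted p under 0.01, gray otherwise, with the list median as a bar. The LXR target list (8 of 16) and the stress list (16 of 29) hold the largest shares of red points, and 3 genes under -1.5 are drawn at the edge with their values.

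T0901317 and GW3965, given at the same dose for the same time, were compared directly as the 1 pair of agonists. Against GW3965, 16 genes (0.0735% of 21781) were higher and 5 (0.0230%) lower with T0901317 by at least 2-fold, or 130 (0.597%) and 42 (0.193%) without a cutoff on size. Fits with the 8 libraries of these 2 groups alone gave 8 and 3. GW3965 replicate 1 stood below the other GW3965 libraries in several genes, with 1274 CPM against 1858 to 2203 CPM for SREBF1, and without it the counts were 17 and 6. Without T0901317 replicate 4, 11 genes were lower. The comparisons of each agonist with DMSO share the DMSO libraries, so their values are given side by side only. GW3965 was above DMSO for 406 genes (1.86%) and below it for 189 (0.868%) at any size, and for 10 and 0 of the 16 measured LXR targets, beside 8 and 0 for T0901317.

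A few lipid genes were lower with T0901317 than with GW3965. In the LXR target list, 3 of 16 measured genes were lower with T0901317 than with GW3965 and 0 higher. ABCA1 was at 106, 118, 123 and 106 CPM with GW3965, all above the T0901317 libraries (log2 difference -0.91 ± 0.07, adjusted p = 5.22e-07). LPCAT3, at 237, 247, 244 and 235 CPM with GW3965 (-0.37 ± 0.05), and SCD, at 3373 to 3598 CPM (-0.29 ± 0.05), were the others. ABCG1, at 158, 186, 187 and 176 CPM, missed the threshold (-0.33 ± 0.07, adjusted p = 0.0114), and for SREBF1 the groups overlapped (-0.23 ± 0.13, 95% interval of the difference -0.50 to 0.0375). ACSL1 was lower as well (-0.46 ± 0.05), and in the list of fatty acid synthesis it and SCD were the 2 of 27 that differed. In the cholesterol synthesis list 0 of 29 differed with edgeR, with 4 lower and 0 higher at an unadjusted p under 0.05 and 2 lower with DESeq2, and in the lipid droplet list MGLL, the monoglyceride lipase, was higher with T0901317 (0.42 ± 0.06, adjusted p = 0.000293). In the stress list 0 of 29 differed in either direction with edgeR, and 2 were lower with DESeq2. At an unadjusted p under 0.05, 8 (27.6%) were lower and 0 higher, against 4.83% and 6.74% of all genes tested. The log2 differences were of -0.12 for CHAC1 (95% interval -0.33 to 0.0876) and 0.02 for ASNS (-0.10 to 0.15).

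Some PPAR targets and oxidation genes were lower with T0901317. Of 26 measured, 6 were lower with T0901317 than with GW3965 and 0 higher. PDK4 was at 12.2, 12.3, 13.3 and 13.4 CPM with GW3965, more than in any T0901317 library (T0901317 minus GW3965 -1.21 ± 0.10). CPT1A, which brings long-chain fatty acids into mitochondria, was at 171, 177, 181 and 166 CPM with GW3965 and at 113, 108, 115 and 102 CPM with T0901317 (-0.66 ± 0.06). The thiolase ACAA2 (-0.48), the dehydrogenase ACADVL (-0.33) and TXNIP (-0.56) were also among the 6. The droplet protein PLIN2, at 12 to 15.5 CPM with GW3965, was lower with T0901317 by 0.97 ± 0.10. Apart from NR1H4, the amino acid transporter SLC38A4 had the largest difference of the genes that were lower by 2-fold (-2.02 ± 0.11). It was at 4.18 to 4.91 CPM with GW3965 and 1.06 to 1.22 CPM with T0901317. The transcription factor ATOH8 (-1.15 ± 0.22) was also among the 5 genes lower by 2-fold, as were PDK4 and SLC38A4. NR1H4 was counted among the 5 as well, but it passed the filter only through the rosiglitazone libraries, so this call too is given as a description.

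In the opposite direction, 2 of 9 measured genes of the FXR and bile acid list were higher with T0901317 than with GW3965 and 0 lower. FGF19 was at 11.4, 13.8, 17.7 and 18.5 CPM with GW3965, below every DMSO and every T0901317 library (T0901317 minus GW3965 1.44 ± 0.12), and NR0B2 was at 1.96, 2.05, 1.96 and 3.36 CPM (1.29 ± 0.19). DHRS3, which reduces retinal, showed the same order, with 9.52, 10.9, 12.2 and 15.2 CPM with GW3965, 26.1, 25.1, 27.1 and 23.6 CPM with DMSO and 29.5, 32.7, 37.8 and 30.8 CPM with T0901317 (1.45 ± 0.11 against GW3965). Against DMSO, DHRS3 did not pass with T0901317 (0.36, edgeR adjusted p = 0.103) and was lower with GW3965 (-1.09, adjusted p = 1.91e-06). FGF19 (-0.51, adjusted p = 0.0117) and NR0B2 (-0.64, adjusted p = 0.0754) did not pass with GW3965 against DMSO. IRF1, a transcription factor of the interferon response, was at 53.5 to 63.6 CPM with GW3965 and 107 to 141 CPM with T0901317 (1.10 ± 0.08). With DMSO it was at 104 to 111 CPM. Against DMSO, IRF1 did not pass with T0901317 (0.22, edgeR adjusted p = 0.175) and was lower with GW3965 (-0.88, adjusted p = 1.98e-07). TNFSF10, which encodes the death ligand TRAIL, and FAM131B were higher by 1.19 ± 0.16 and 1.20 ± 0.11 than with GW3965, beside 0.99 and 0.56 against DMSO. Smaller differences in this direction included ABCG2 (0.88 ± 0.09), MMP7 (0.80 ± 0.08) and, among 13 PXR and CAR targets, CYP3A5 alone (0.40, adjusted p = 0.000467).

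**Figure D4:**
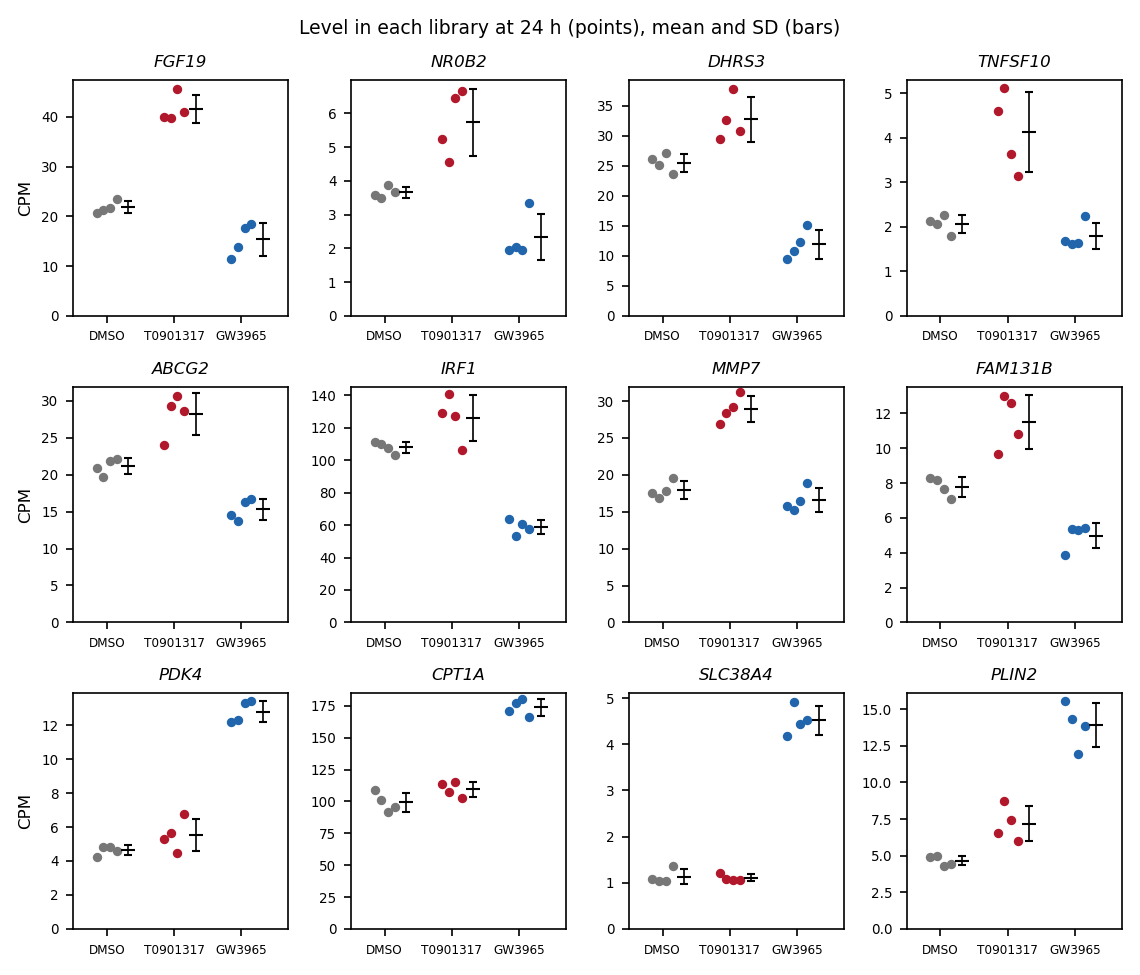
Level in CPM (vertical axes, each from 0) of 12 genes in each library of 24 h (points), with the mean and SD of 4 libraries per group (bars), for DMSO, T0901317 and GW3965. FGF19, NR0B2 and DHRS3 were lowest with GW3965 and highest with T0901317, whereas PDK4, CPT1A, SLC38A4 and PLIN2 were highest with GW3965.

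The response at 24 h was then set beside that at 48 h, in libraries that share no samples with it. Of the 150 genes higher by 1.5-fold at 24 h, 87 were higher and 36 lower at 48 h, where 15.1% and 16.8% of all genes tested were higher and lower. The difference between the 2 responses, tested as an interaction in all 32 RNA libraries, was higher at 48 h for 369 (1.59%) and lower for 578 (2.50%) of 23140 genes at 2-fold. Without a cutoff on size, 7.93% and 10.5% of the genes tested at 24 h differed in these directions.

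Several LXR targets and fatty acid genes had a larger response at 48 h. In the LXR target list, 6 of 16 measured members had a higher response at 48 h and 1 a lower one, and in the list of fatty acid synthesis 9 and 1 of 27, while the lipid droplet list had 2 and 3 of 16. ABCA1 was at 1.83 to 3.17 CPM with DMSO and 75.4 to 96.1 CPM with T0901317 at 48 h, so that its log2 fold change went from 3.71 to 5.12. ABCG1 was the LXR target with the lower response, and MID1IP1 (-0.51) the fatty acid gene. ABCG1 stood at 21.1 to 24.1 CPM in the DMSO libraries of 48 h, above those of 24 h, and at 179 to 209 CPM with T0901317 (log2 fold change 3.03). FASN reached a log2 fold change of 2.55 and ACSS2 of 2.68. In the cholesterol synthesis list, where 3 of 29 members were higher at 24 h, 18 had a higher and 1 a lower response at 48 h, among them INSIG1 with 1.67 against 0.36.

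Most stress genes raised at 24 h were lower than DMSO at 48 h, 13 of the 16, while CALR was higher (1.21) and ATF4 (-0.19) and PHGDH (-0.15) did not pass. In the whole list, 18 of 29 measured members had a lower response at 48 h and 7 a higher one, and at 48 h 18 were lower and 8 higher than with DMSO. CHAC1 was at 176, 172, 153 and 175 CPM in the DMSO libraries of 48 h and at 51.1, 53.8, 58.2 and 64.3 CPM with T0901317 (log2 fold change -1.57, difference from 24 h -3.97 ± 0.16). ASNS was at 385, 355, 423 and 376 CPM with DMSO and at 128 to 216 CPM with T0901317 (-1.15). Both agents had higher levels at 48 h than at 24 h for these genes, and at 48 h the DMSO level lay above that of T0901317. The same held for DDIT4, with 484 to 528 CPM against 211 to 258 CPM at 48 h, and for TRIB3, with 867 to 968 CPM against 246 to 342 CPM. Levels at 24 and 48 h come from separate count tables with a DMSO group each, and the change of DMSO with time was not tested.

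AP1 and immediate early genes, few of which were called at 24 h, had a lower response at 48 h in 10 of 12 and 24 of 28 measured members. ATF3 went from 3.15 to 3.78 CPM in DMSO libraries of 24 h to 129 to 143 CPM at 48 h, and with T0901317 from 4.83 to 6.95 CPM to 10.3 to 16 CPM (difference -4.05 ± 0.18). HBEGF differed by -3.74 ± 0.19, and larger differences were those of SLC6A9 (-4.19 ± 0.35), G0S2, an inhibitor of the triglyceride lipase (-4.96 ± 0.35), PRSS1, a trypsinogen (-4.66 ± 0.49), and INHBE, an inhibin subunit (-5.01 ± 0.66). TXNIP, lower by 0.45 at 24 h, was at 574 to 634 CPM with DMSO and 74.6 to 92.7 CPM with T0901317 at 48 h. The largest differences in the other direction were those of TNFSF10 (2.46 ± 0.24), TMEM37 (2.12 ± 0.34), SOSTDC1, a secreted BMP antagonist (1.95), the transcription factor MYB (1.93) and the butyrophilin BTN3A3 (1.93) among genes of an average log2 CPM of at least 1. FGF19 kept no difference from DMSO past the threshold at 48 h (57.0 to 73.5 CPM against 62.6 to 76.8 CPM, log2 fold change 0.11, adjusted p = 0.672), while NR0B2 reached 2.04.

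**Figure D5:**
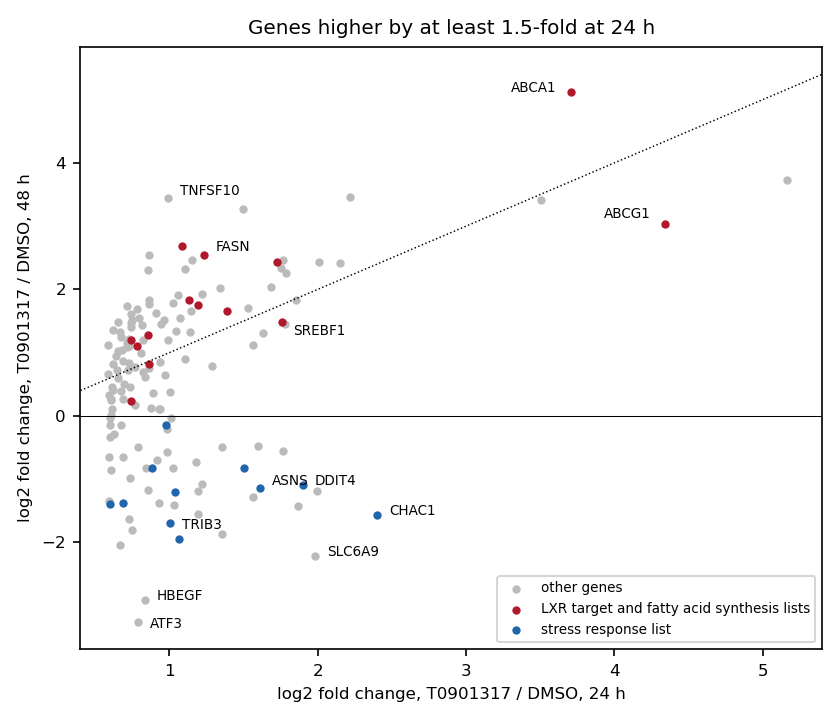
Log2 fold change of T0901317 against DMSO at 48 h (vertical axis) against that at 24 h (horizontal axis) for the 150 genes higher by at least 1.5-fold at 24 h, with members of the LXR target and fatty acid synthesis lists in red, those of the stress list in blue and equal change as a dotted line. All red points lie above 0, and the blue points drawn, those past 1.5-fold at 24 h, lie below 0.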

How the data were processed

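The authors made paired-end mRNA libraries with Nextera primers and deposited raw read counts per gene, 1 table for 24 h and 1 for 48 h, with 51838 genes each. Per the labels, their processing notes name TopHat, Cufflinks and hg19, while no source used here gives the counting program or its strand setting. Samples were grouped by the labels' agent and time. The deposited counts of 24 h were scaled with TMM, filtered with filterByExpr and tested with edgeR 4.0.16 (quasi-likelihood test, R 4.3.3) over all 16 libraries of 24 h (DMSO, GW3965, T0901317 and rosiglitazone, 4 each). The difference between times was an interaction in a fit of all 32 RNA libraries. P-values were adjusted over all genes tested (Benjamini-Hochberg, adjusted p under 0.01), and errors of log2 fold changes are standard errors from the quasi-likelihood F. The counts of 48 h libraries, as deposited, were scaled in that larger fit, and CPM is not divided by gene length, so levels are not compared between genes.

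Genes were named by rule: the 20 largest increases and 10 largest decreases past 1.5-fold of average log2 CPM at least 0, all genes lower by 2-fold, up to 5 called and 2 other members of each list, the LXR, RXR, FXR, PXR and PPARG genes, the 5 largest differences in each direction between agonists and between times, and members of lists that are counted. Some genes that the rule selects, or that belong to counted lists, are not reported here. The comparison, its members and the lists were chosen with earlier results of these data known. DESeq2 1.42.0, other scalings, no filter, a test against 1.5-fold, the 8 libraries alone, a replicate block and leaving out each library were the alternatives. On simulated counts for T0901317 against DMSO over 21781 genes, edgeR called 68.7% of genes changed by 1.5-fold, 88.1% by 2-fold and 100% by 4-fold, with 0 false calls. For the interaction over 23140 genes it called 35.8%, 80.6% and 100%. In both simulations the changed genes were drawn from those with a mean above 1 CPM, so these shares do not cover genes below that level. The simulated spread was the one edgeR had estimated from these libraries. Same-numbered T0901317 and DMSO libraries did not deviate together (r between -0.410 and 0.113), so numbers were not used as pairs. For T0901317 and GW3965, r ran from -0.221 to 0.488 for same numbers and from -0.513 to 0.410 for different ones. Numbers were not used as pairs in that comparison either. Promoter and microRNA sequences came from RefSeq (GRCh38.p14), and 9700 of the genes tested had a promoter window. The other samples of the series were not used here. Figures were drawn with matplotlib 3.10.9.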

Additional observations from a re-analysis of the deposited data

Results flagged for a closer look

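In 8 of 98 groups of 4 libraries (49 genes, DMSO and T0901317 at 24 h), 1 library lay far from the others, its gap to the nearest taking a larger share of the group's range than Dixon's 95% critical value, and chance gives this in about 1 of 20 groups. The share was 0.868 for CYP4F3 (DMSO replicate 4, lowest at 0.949 CPM), 0.964 for DDIT3 (T0901317 replicate 3, lowest at 11.6 CPM) and 0.857 for VEGFA (T0901317 replicate 3, highest at 294 CPM). SLC38A4 had 1 such library in each group, with 0.876 for DMSO replicate 4 (1.37 CPM) and 0.874 for T0901317 replicate 1 (1.22 CPM), both highest. ATOH1 (0.830, 6.38 CPM) and ITGA1 (0.844, 46.8 CPM) were highest in DMSO replicate 3. RP11-573I11.2 had 1.0, since T0901317 replicate 4 was the 1 T0901317 library with counts.

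For 26 of the 49 genes the log2 fold change at 48 h differed from that at 24 h by at least 2-fold, by the interaction in the fit of all RNA libraries with edgeR (adjusted p under 0.01), 10 upward and 16 downward. The difference was positive for ABCA1 (1.42), FASN (1.32), ACSS2 (1.60), INSIG1 (1.31), NR0B2 (1.39), PDK4 (1.30), ABCG2 (1.10) and TNFSF10 (2.46), and for NR1H4 (6.17) and RP11-573I11.2 (3.93), which had few counts. NR1H4 passed the filter at 24 h only through the rosiglitazone libraries, so its value is given as a description. The difference was negative for ABCG1 (-1.31). Among the stress genes it was -3.97 for CHAC1, -3.00 for DDIT4, -2.76 for ASNS, -2.69 for TRIB3, -2.23 for PSAT1, -3.01 for SESN2, -2.32 for VLDLR and -2.06 for DDIT3. It was -4.19 for SLC6A9, -3.30 for ADM2, -4.05 for ATF3, -3.74 for HBEGF, -2.02 for VEGFA, -1.67 for CDKN1A and -2.39 for TXNIP.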

How the results depend on the processing

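The cause of the changes below was not tested. Tested against 1.5-fold, T0901317 against DMSO gave 37 genes higher and 0 lower at 2-fold, and 42 and 0 at 1.5-fold and at any size (44 lower at an unadjusted p under 0.05). That test gave 4 and 3 against GW3965 and 123 and 380 for the difference between times. Scaling by library size gave 11 genes lower by 1.5-fold, with a median log2 fold change of -0.0480, and over the scalings 91.9 to 96.2% of calls at 1.5-fold were higher. DESeq2 called 434 higher and 66 lower at any size. The 8 libraries of both agonists alone gave 8 and 3. With a replicate block, 56 genes were higher and 2 lower at 2-fold, and it moved no count by over 1.5 times.

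Leaving out 1 library gave 50 to 58 genes higher and 1 (without T0901317 replicate 1 or 3) to 7 (without replicate 4) lower at 2-fold. At 1.5-fold, 4 (without T0901317 replicate 1) to 11 (without replicate 4) were lower, and at any size 13 (without T0901317 replicate 1) to 27 (without replicate 4). Against GW3965, 4 to 11 were lower. The LXR target list kept 8 higher genes by count, and the stress list had 14 to 16. SLC38A4, between -0.0819 and 0.0755, RXRA, between -0.00142 and 0.12, and PPARG, between -0.0877 and 0.0290, changed sign and were not called. PLTP passed without the filter (adjusted p = 0.0037), with DESeq2 (0.00142) and in the 8 libraries (0.00579), as did NR0B2 in the 8 libraries (0.00981). With 1 library left out, 390 values of single genes and lists kept their direction and side of the threshold, 22 lost their call and 4 changed sign. NR1H4 did not pass the filter in the 8 libraries. The depth limits what can be said of genes near 1 CPM.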

Other observations

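Further genes of amino acid and redox metabolism, none of them in the lists and all named after their values were seen, rose at 24 h. PCK2, the mitochondrial phosphoenolpyruvate carboxykinase, was at 21.2 to 23.4 CPM with DMSO and 49.5 to 59.3 CPM with T0901317 (log2 fold change 1.22 ± 0.10, edgeR adjusted p = 2.37e-07). SLC1A4, a carrier of neutral amino acids, was at 7.88 to 9.92 CPM against 18.7 to 20.6 CPM (1.19 ± 0.11), and the cysteine-forming enzyme CTH at 1.79 to 2.75 CPM against 3.34 to 4.02 CPM (0.74 ± 0.15). The arginine-forming enzyme ASS1 (0.87 ± 0.09) and OPLAH, an enzyme of the glutathione cycle (0.98 ± 0.18), rose as well. At 48 h PCK2, SLC1A4 and CTH were lower with T0901317 than with DMSO, by log2 fold changes of -1.08, -1.56 and -1.81, with DMSO levels of 234 to 248 CPM for PCK2. ASS1 (0.12) and OPLAH (-0.21) did not pass at 48 h.

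Other genes outside the lists, also named after their values were seen, had sizeable changes. ADAM19, a membrane protease, went from between 23.1 and 30.9 CPM to between 65.0 and 73.0 CPM (1.29 ± 0.09), and the peroxisomal protein TMEM135 from between 18.0 and 22.2 CPM to between 41.0 and 47.9 CPM (1.14 ± 0.07). PTGS1, a cyclooxygenase (1.06 ± 0.14), and TSC22D3, a known target of glucocorticoids (1.03 ± 0.09), rose about as much. POU2F3, the transcription factor of tuft cells, was at 0.212 to 0.614 CPM with DMSO and 1.25 to 2.39 CPM with T0901317 (2.22 ± 0.32), and the log2 fold change at 48 h was 3.46. Among the 26 genes that fell at any size were the ion transporter SLC12A2 (-0.50 ± 0.06), BTG2, an antiproliferative gene (-0.52 ± 0.07), the matrix protein TGFBI (-0.44 ± 0.06) and the transcription factor SOX4 (-0.43 ± 0.09).

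Among the genes higher by at least 2-fold with T0901317 than with GW3965, and outside the rule for named genes, were ALDH1A3, which makes retinoic acid, CYP24A1, which inactivates vitamin D, and the carbonic anhydrase CA2. ALDH1A3 was at 7.47 to 11.4 CPM with T0901317, 8.17 to 8.80 CPM with DMSO and 3.55 to 5.32 CPM with GW3965 (T0901317 minus GW3965 1.09 ± 0.14, adjusted p = 0.000142). The differences were 1.05 ± 0.17 for CYP24A1 and 1.08 ± 0.17 for CA2, and none of the 3 genes passed against DMSO with edgeR (adjusted p = 0.850, 0.154 and 0.303).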
